A study of Mus musculus with 30 samples.

Results

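Gene expression over the first 3 days of differentiation was described in the cells that had not been sorted as neural: the day 1 sample, the day 2 sample sorted as E-cadherin-positive and the day 3 sample sorted as Sox1-negative. These 3 samples (9 arrays) were chosen by their labels out of 10 samples (30 arrays) and put in order of day. All came from a mouse embryonic stem (ES) cell line derived from strain 129 that carries Sox1-GFP, a fluorescent reporter of the neuroectodermal gene Sox1. The cells were grown as serum-free floating aggregates (SFEB culture), and RNA was taken from populations sorted by flow cytometry, per the labels' protocol. The 3 undifferentiated ES samples, sorted as E-cadherin-positive, served as the measure of spread between samples. The other 4 samples (E-cadherin-negative cells of day 2 and Sox1-positive cells of days 3, 4 and 5) are given beside single genes. Every RNA was read on chips A, B and C of Affymetrix's U74 version 2 arrays. The day 1 sample has no sort label, the day 2 sample was sorted on E-cadherin and the day 3 sample on Sox1, so day and sort cannot be told apart. There was 1 sample a day, and the labels do not say whether the ES samples were separate cultures; p-values therefore measure only the spread between the ES samples, which may be technical.

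ES cells in the naive state hold a network of transcription factors (Pou5f1, Nanog, Esrrb, Klf4, Tbx3, Zfp42) together with the self-renewal signal of the cytokine LIF. When LIF is withdrawn they pass through a state like that of the primed epiblast, marked by genes such as Dnmt3b, before they take up a germ layer fate. E-cadherin is the adhesion protein of pluripotent and epithelial cells, and cells that become neuroectoderm in aggregates lose it and switch on Sox1.

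The sorted genes themselves moved little on the arrays. Cdh1, which encodes E-cadherin, had an intensity of 534 on day 1, 572 on day 2 and 593 on day 3, within the 451 to 722 of the 3 ES samples, and 565 in the day 2 cells sorted as E-cadherin-negative. Sox1 had 152, 253 and 241, against 138 to 173 in ES cells and 308 in the day 3 Sox1-positive cells. Neither transcript therefore separated the sorts by itself. Crabp1, a retinoic acid-binding protein of the neural progenitors, did: it had 136 in the day 2 E-cadherin-positive sample against 6659 in the E-cadherin-negative one, and 159 in the day 3 Sox1-negative sample against 11405 in the Sox1-positive one. Crabp1 and the other genes said below to have been picked with their values known are descriptions.

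Genes of the pluripotency network were slightly below ES levels on all 3 days and much less so than on the neural side. Pou5f1, the central factor of the network, had 6783 on day 1, 11905 on day 2 and 7075 on day 3, against 7572, 8778 and 6836 in ES cells. Only the day 2 sample lay above the ES range, and day 1 was just below it. Nanog (6218, 6429 and 6849) and Sox2 (5538, 6278 and 6620) stayed within their ES ranges of 5465 to 10940 and 5333 to 6956. Over the 32 measured genes of the core and naive pluripotency list, the median difference from the ES mean (log2) was -0.24, -0.31 and -0.39 on the 3 days in turn, against -0.11 to 0.0041 in the single ES samples. In the 4 samples of the neural side it ran from -1.48 to -3.33. Of these 32 genes 1 rose and 0 fell at both steps, and the median day 3 minus day 1 difference was -0.018, beside -0.0016 over all genes.

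Within that list, some naive-state genes were already well below ES cells on day 1 and stayed there, but others were not. The nuclear receptor gene Esrrb had 3996, 4243 and 5190 against 10661 to 16886 in ES cells, and 68.2 in the day 3 Sox1-positive sample. Klf4 had 423, 787 and 784 against 1854 to 3339 in ES cells. The T-box gene Tbx3 had 367, 161 and 362 against 1105 to 1694, and Tfcp2l1 had 601, 464 and 523 against 1250 to 1683. All 4 genes lay below every ES sample on each day. Zfp42 (Rex1) was different, with 3835 on day 1, inside the ES values of 3049 to 4338, and then 1655 and 1440. Klf2 went the other way, with 477, 833 and 705 against 305 to 609, inside and then above the ES samples. These genes, like Nanog and Sox2, were picked with their values known.

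The primed epiblast list lay above ES cells by its median on all 3 days. The median of the 22 measured members was 0.52, 0.52 and 0.76 above the ES mean (log2) on days 1, 2 and 3, beside -0.23 to 0.16 in the single ES samples. On the neural side it was raised at first, with 0.38 in the day 2 E-cadherin-negative and 0.45 in the day 3 Sox1-positive sample. It was -0.0076 and -0.57 in the Sox1-positive samples of days 4 and 5. The DNA methyltransferase gene Dnmt3b had 2857 on day 1, inside the ES range of 1804 to 3075, and then 7129 and 7483. Lefty1, an inhibitor of Nodal signalling, was already at 42663 on day 1, then 49194 and 36908, against 10869 to 18113 in ES cells. Sox3, which is also a gene of neural progenitors, had 893, 1192 and 1742 against 611 to 764. It had 3771 in the day 2 E-cadherin-negative and 4838 in the day 3 Sox1-positive sample. These 3 genes, picked with their values known, lay above every ES sample on days 2 and 3. Of the 22 members 1 rose and 0 fell at both steps; 5 had an unadjusted p under 0.05 for a higher day 3 than day 1 in the limma fit and 1 for a lower.

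A gene is said here to rise or fall when log2(intensity + 16) moved the same way by 0.5 or more from day 1 to day 2 and again from day 2 to day 3. This is a rule of size, since 1 sample a day allows no test over days alone. Of 12941 genes tested, 114 rose (0.881%) and 104 fell (0.804%) at both steps. By a looser rule, 441 (3.41%) went up and then down and 698 (5.39%) went down and then up. Turning back sets no condition between day 1 and day 3, while a rise or fall needs day 2 to lie between them. The sizes of these classes are therefore not compared. At the edge of the rule, Itgb2l had a smaller step of 0.5012 and counted as rising, while Zfp282 with 0.4999 did not; Rbmx2 counted as falling with a smaller step of 0.5008 and Slc66a1 with 0.4978 did not.

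**Figure D1:**
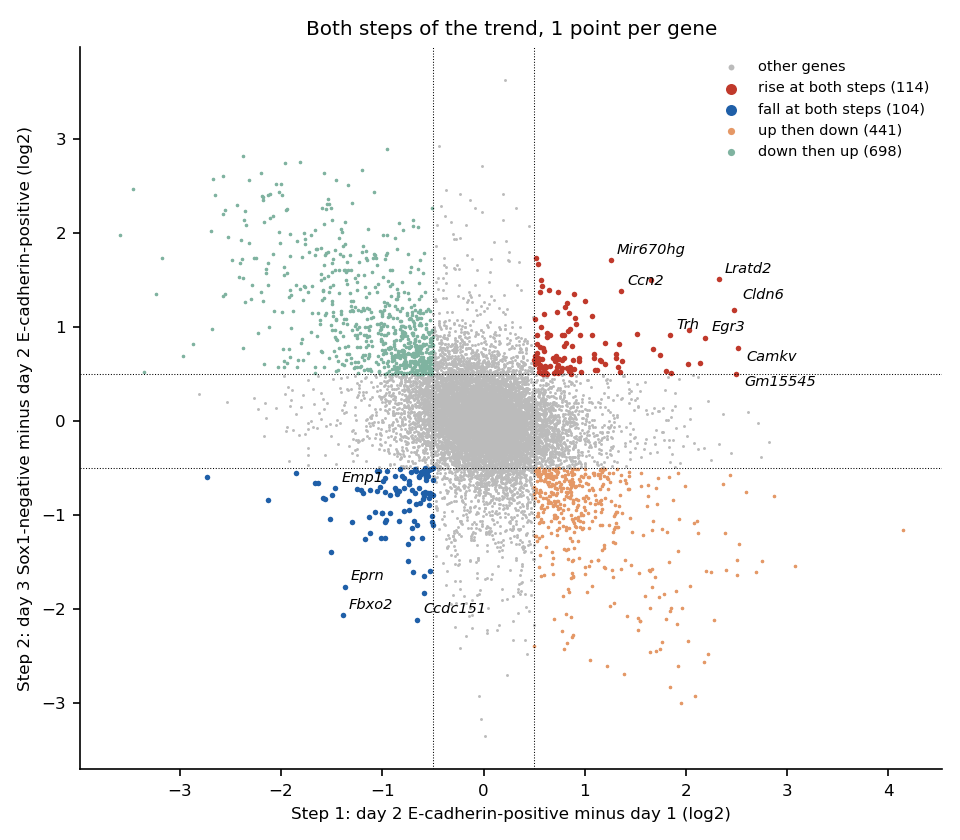
Each point is a gene, placed by its step from day 1 to day 2 E-cadherin-positive cells (horizontal, log2) and from day 2 to day 3 Sox1-negative cells (vertical, log2), with dotted lines at the 0.5 threshold. There were 114 rising genes (red) and 104 falling genes (blue), and 441 and 698 genes turned back on day 2. Turning back sets no condition between day 1 and day 3, so the sizes of these classes are not compared.

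The ES samples gave a yardstick for the spacing of 3 samples in any order. It bears on the rises and falls, not on the counts of 441 and 698, whose rule differs. In 508 genes (3.93%) the 3 ES values, put in order of size, were 0.5 or more apart at both gaps. In the 3 day samples, put in order of size in the same way, it was 526 genes (4.06%), among them all 114 rising and 104 falling genes. The day samples were thus spaced about as widely as the 3 samples labelled as ES cells. ES replicate 3 stood apart in the ratio of 3' to 5' actin signal, a measure of RNA integrity: it was 1.701, 1.645 and 1.846 on chips A, B and C, against 0.9955 to 1.251 in ES replicates 1 and 2 and 0.9387 to 1.138 in the day samples. Its part in the ES spacing was not tested. By the SDs given below, ES replicates 2 and 3 were the closest pair, and both pairs with replicate 1 were wider. With steps of 0.25 the counts were 2471 in ES and 2435 in the day samples, and with steps of 1 they were 29 and 42. The SD over genes of the log2 difference was 0.562 from day 1 to day 2 and 0.541 from day 2 to day 3. From day 1 to day 3 it was 0.593. Among the ES samples it was 0.573 for replicates 1 and 2, 0.64 for 1 and 3 and 0.494 for 2 and 3. Of the tested genes, 53.3% on day 1, 55% on day 2 and 53.5% on day 3 lay outside the range of the 3 ES values, compared with 63.3% to 67% in the 4 samples of the neural side. A further ES sample would also lie outside the range of only 3 values in many genes, so these shares are read only against each other.

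**Figure D2:**
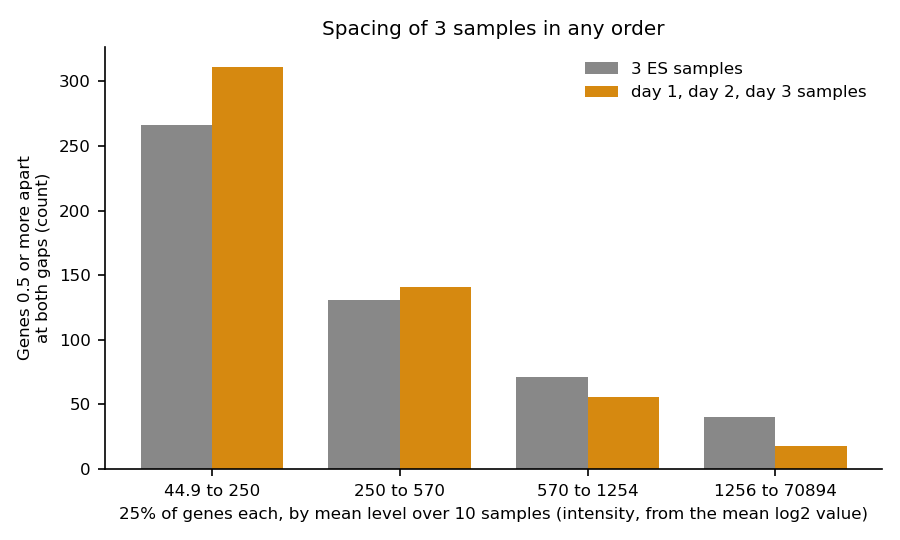
Bars count genes whose 3 values lay 0.5 or more apart (log2) at both gaps, for the 3 ES samples (grey) and for the day 1, day 2 and day 3 samples (orange), in 4 equal classes of genes by mean level. In the dimmest class the counts were 266 and 311, and in the brightest 40 and 18.

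Dim genes supplied most of both classes. With the genes split into 4 equal classes by mean level, 68 rose and 52 fell in the dimmest class, 28 and 33 in the next, then 14 and 16, and 4 and 3 in the brightest. In the 2 brighter classes the ES samples were spaced as widely in 71 and 40 genes and the day samples in 56 and 18, so the day samples gave the lower count in both.

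In limma's fit of all 10 samples in 8 groups, whose residual spread comes from the ES samples alone, 0 genes were called higher and 0 lower on day 3 than on day 1 at an adjusted p under 0.05 (0%). At an unadjusted p under 0.05 there were 401 higher and 379 lower genes, 780 in all (6.03%). The lowest adjusted p was 0.648 and the median standard error of the log2 difference was 0.403. From day 1 to day 2 limma called 0 genes, with 634 at an unadjusted p under 0.05 and a lowest adjusted p of 0.755, and from day 2 to day 3 it called 0, with 519 and 0.84. Without ES replicate 1 it called 3 genes higher on day 3 than on day 1 (Egr2, Fos and Ccn2) and 1 lower (St3gal4), each with a limma adjusted p of 0.0466.

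Many rises began from a low day 1 value. Of the 114 rising genes, 81 were below all ES samples on day 1, 31 within their range and 2 above, and on day 3 it was 0, 23 and 91. Of the 104 falling genes, 72 were above all ES samples on day 1, 26 within and 6 below, and on day 3 82 were below and 22 within. The rule picks genes whose 3 values are far apart, so these counts describe the chosen genes. Each step was larger than the gene's own ES range in 43 rising and 37 falling genes, and the largest changes among those with a signal at or above the chip's median are described next.

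Among the rises was Cldn6, a tight junction claudin of early embryonic epithelium. It had 285 on day 1, 1660 on day 2 and 3794 on day 3, against 787, 1659 and 1166 in the ES samples. Day 1 was below and day 3 above every ES sample. The log2 difference between day 3 and day 1 was 3.66 with a standard error of 0.549, a 12.7-fold difference, and the limma adjusted p was 0.698. Another probe set of the gene moved in the same direction. In the samples of the neural side Cldn6 was low, with 176 in the day 2 E-cadherin-negative cells and 129 in the day 3 Sox1-positive cells.

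Trh, which encodes the precursor of thyrotropin-releasing hormone, had 802, 2914 and 5508 on the 3 days against 1409, 963 and 1509 in ES cells. Its log2 difference was 2.76 with a standard error of 0.413 (limma adjusted p 0.648). Day 1 lay below the ES values, and day 2 and day 3 above them. The neural side was higher on both shared days, with 5713 on day 2 and 7288 on day 3. It then had 3135 on day 4 and 1089, inside the ES values, on day 5. Fbxo2, an F-box subunit that binds glycoproteins for ubiquitination, went the other way with 872, 323 and 65 against 939, 702 and 749 in ES cells. Its log2 difference was -3.45 with a standard error of 0.371 (limma adjusted p 0.648), and it was 33.4 in the day 3 Sox1-positive sample.

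The promoters of these 3 genes are shown because Cldn6 and Trh were bright rising genes and Fbxo2 fell from a clear ES-like signal to a low one. Each is the 250 bases before the gene's start, 5′ to 3′ on the gene's strand, from RefSeq on GRCm38.p6: Cldn6 at chr17:23679115-23679364 on the plus strand, Trh at chr6:92244651-92244900 on the minus strand and Fbxo2 at chr4:148160418-148160667 on the plus strand. Capitals mark a match to TGACGTCA, the full cyclic AMP response element, or to TATAA, the core of the TATA box, both searched on both strands; the 2 motifs do not overlap here.
Cldn6: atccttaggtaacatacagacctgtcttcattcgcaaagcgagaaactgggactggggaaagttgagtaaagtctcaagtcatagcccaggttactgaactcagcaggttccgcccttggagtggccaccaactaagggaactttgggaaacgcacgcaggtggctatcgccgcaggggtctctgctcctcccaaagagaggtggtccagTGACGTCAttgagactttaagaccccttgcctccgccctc
Trh: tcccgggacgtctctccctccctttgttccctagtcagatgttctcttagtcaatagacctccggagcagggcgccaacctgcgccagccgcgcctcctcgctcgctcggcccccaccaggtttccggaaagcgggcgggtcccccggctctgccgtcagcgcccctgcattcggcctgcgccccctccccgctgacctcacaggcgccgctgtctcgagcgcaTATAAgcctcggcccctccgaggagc
Fbxo2: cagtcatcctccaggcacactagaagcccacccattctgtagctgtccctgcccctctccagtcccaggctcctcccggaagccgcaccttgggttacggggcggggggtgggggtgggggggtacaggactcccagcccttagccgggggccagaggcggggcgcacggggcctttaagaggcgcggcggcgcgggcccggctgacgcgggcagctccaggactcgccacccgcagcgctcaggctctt
Cldn6 held TGACGTCA with its first base at position -40 from the gene's start, and Trh held TATAA at -26. Of 32851 promoters of the same length, 1.55% held TGACGTCA and 22.8% held TATAA. These letters were in neither orientation in the Fbxo2 window. A match is a description of the sequence.

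At the pseudocount of 16 the largest rise was Lratd2, with 32.4 on day 1, 226 on day 2 and 673 on day 3, against 93.8, 103 and 133 in ES cells. Its log2 difference was 3.83 (standard error 0.376, limma adjusted p 0.648). The day 1 signal was low and the size depends on the pseudocount: it was 4.33 with a pseudocount of 1 and 2.93 with 64, where Cldn6 had 3.47. Day 1 was below and days 2 and 3 were above the ES samples. The transcription factor gene Egr3 had 244, 1171 and 2182 against 453, 306 and 324, and the non-coding host gene Mir670hg had 70.6, 191 and 661 against 170, 99 and 101. Ccn2, a secreted matrix protein and a common target of YAP signalling (formerly Ctgf), had 223, 597 and 1578 against 549, 1057 and 873. For Egr3 another probe set did not rise at both steps, and the mean over its probe sets was 2.62 where the single one gave 3.08. Egr3, Mir670hg and Ccn2 ended above every ES sample. Lratd2 and Egr3 were higher still in the day 3 Sox1-positive cells, at 1042 and 2666, while Ccn2 had 848 there.

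Other rises brought a gene from a low day 1 value back to about its ES level. Camkv, a kinase-like protein of the nervous system, had 33.4, 266 and 467 against 309, 425 and 445 in ES cells. Gm15545 had 28.2, 233 and 338 against 302, 368 and 352, and the phosphodiesterase gene Pde1a had 81.4, 124 and 448 against 399, 340 and 439. In these 3 genes the day 1 sample, not the day 3 sample, stood far from the ES samples. With pseudocounts of 1 and 64 the log2 difference was 3.76 and 2.45 for Camkv and 3.54 and 2.12 for Gm15545. Another probe set of Pde1a did not rise at both steps, and the mean over its probe sets was 0.49 in place of 2.25. The remaining 3 of the 12 largest rises were Tnfaip2 (34.1, 151 and 257), Asphd2 (127, 285 and 639) and Lrig3 (80, 152 and 373), a relative of the growth factor receptor regulator Lrig1; each ended above every ES sample. Over the 12 genes the log2 difference ran from 2.02 to 3.83 and the limma adjusted p from 0.648 to 0.714.

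**Figure D3:**
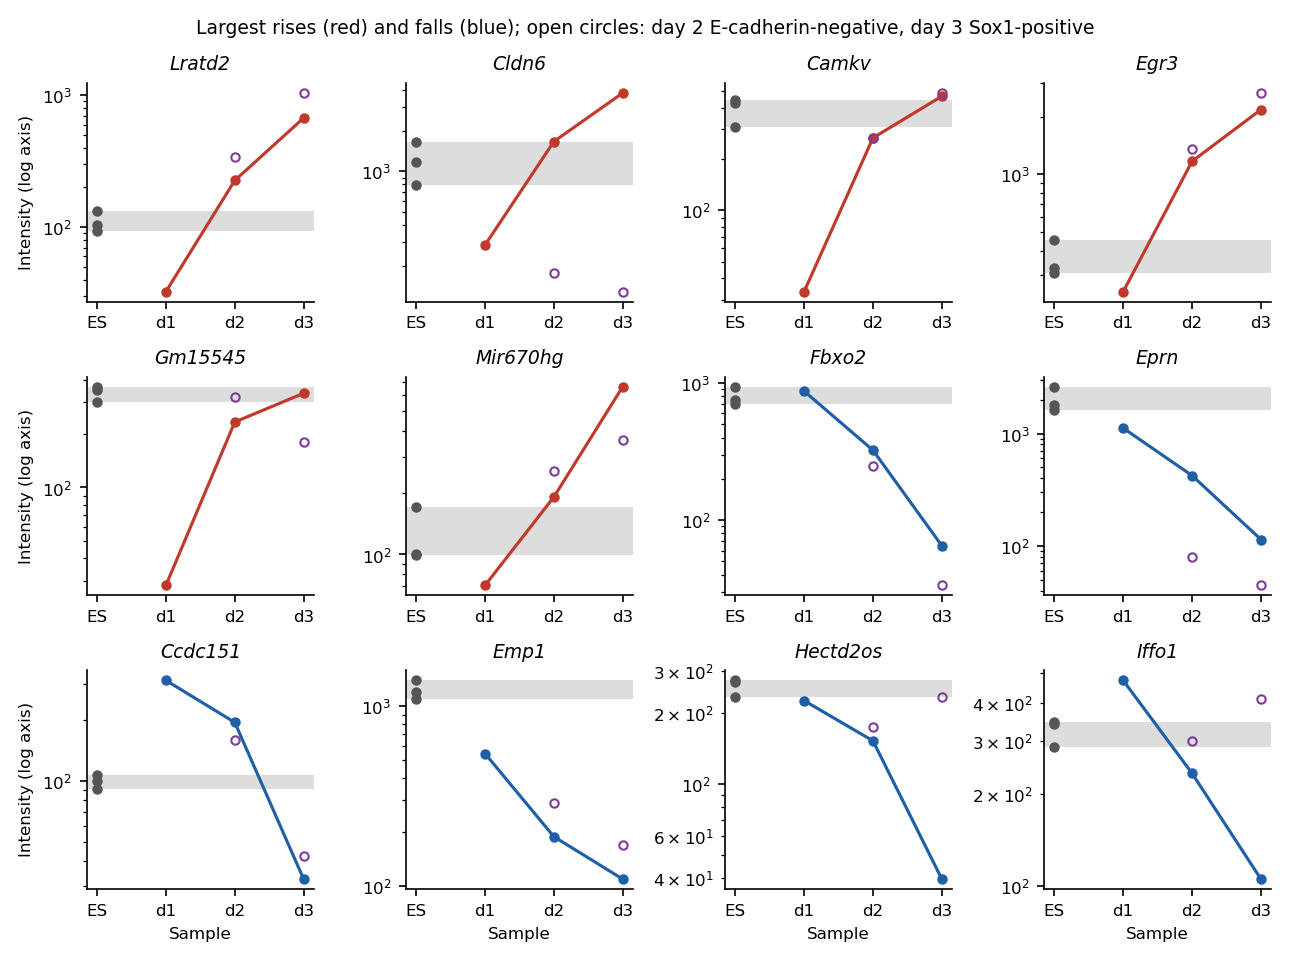
Intensity (log axis) of the 6 largest rises (red) and 6 largest falls (blue) in the day 1, day 2 E-cadherin-positive and day 3 Sox1-negative samples, with the 3 ES samples as grey points and their range as a band. Open circles are the day 2 E-cadherin-negative and day 3 Sox1-positive samples. Lratd2 rose from 32.4 to 673 and Fbxo2 fell from 872 to 65.

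The falls fell into genes that left the ES level and genes that returned to or crossed it. Besides Fbxo2, the first kind held Eprn, a transcript of ES cells, with 1119, 423 and 114 against 1634, 2615 and 1781. It also held Emp1, an epithelial membrane protein, with 546, 188 and 109 against 1097, 1200 and 1395, and Hectd2os with 225, 152 and 39.5 against 233, 269 and 274. The meiotic telomere gene Terb1 had 229, 104 and 57.9 against 297, 217 and 283. All 5 ended far below every ES sample.

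In the second kind, day 1 was the high sample. The signal transducer gene Stat5b had 305, 123 and 67.6 against 74.3, 63.4 and 86.9 in ES cells, and Gpx3, a secreted glutathione peroxidase, had 1826, 925 and 544 against 762, 526 and 876. Stat5b and Gpx3 ended inside their ES ranges. Ccdc151, a gene of motile cilia, had 313, 194 and 32.6 against 107, 99.3 and 91.1, and so crossed from above to below the ES samples. Klrb1 (434, 209 and 98.7), the alpha-glucosidase gene Ganc (612, 248 and 144), Iffo1 (473, 234 and 105) and the heparan sulfate sulfotransferase gene Hs3st3a1 (395, 223 and 107) crossed in the same way. Over the 12 largest falls the log2 difference ran from -3.45 to -1.72 and the limma adjusted p from 0.648 to 0.726. For Stat5b, Gpx3, Hs3st3a1, Ganc and Iffo1 another probe set did not fall at both steps: over the probe sets of each gene the mean was -0.85, -0.88, -0.58, -1.12 and -1.76, where the single probe set gave -1.94, -1.72, -1.74, -1.97 and -2.02.

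Probe sets that were not used gave another reading of the same RNA. They come from the same 3 samples, so they check the probes and not the trend over days. The rising genes had 32 others in 24 genes, of which 10 (31.2%) also went up at both steps by any amount, beside 20.3% of all 8187 such probe sets. Only 3 (9.38%) passed 0.5 at both steps, beside 1.2% of all. The falling genes had 29 others in 24 genes, of which 6 (20.7%) went down at both steps, beside 16%, and 0 passed 0.5 at both steps, beside 0.77%.

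Further members were picked with their values known. Among the rises were the extracellular matrix gene Frem2 (31.4, 133 and 407), whose ES values of 85.5, 209 and 324 were widely spread, and the ETS factor gene Etv2 (72.8, 375 and 584, with ES values of 125 to 217). Prickle1, of the planar cell polarity pathway, had 526, 928 and 1765 with ES values of 446 to 1056. The growth factor gene Fgf17 had 157, 229 and 357 with 209 to 263 in ES cells, and the guidance ligand gene Ntn1 had 181, 281 and 492 with 231 to 339. Stx3, a syntaxin of membrane fusion, had 1050, 1833 and 2923 with 799 to 1211 in ES cells. Among the falls, Gadd45g, a stress and growth arrest gene, had 785, 255 and 137 with ES values of 209 to 662, and Rb1, the retinoblastoma gene, had 322, 168 and 106 with 76.6 to 151. Txnip, an inhibitor of thioredoxin, had 1223, 793 and 540 with 786 to 846 in ES cells. The brightest listed here, Gchfr, a regulator of tetrahydrobiopterin synthesis, had 20075, 9154 and 4499, but its ES values were 30452, 28577 and 4700, a wider span than that of the days. No other probe set of Rb1, Txnip or Gchfr fell at both steps. Of the other probe sets, 1 of 3 for Prickle1 and 2 of 3 for Stx3 went up at both steps by any amount.

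Gene lists were then read by their counts and medians, as descriptions with no test. Over all genes 6451 of 12941 were higher on day 3 than on day 1, 0.881% rose, 0.804% fell and the median difference was -0.0016. The reference gene list, of genes often taken as stable, had a median of 0.23 with 7 of 11 higher. Of 34 lists, the immediate early and heat shock list had the highest median day 3 minus day 1 difference, 0.74 (log2), with 17 of 22 genes higher. Immediate early genes are switched on within minutes by growth factors and by stress, including handling of cells. Of the 22, 8 had an unadjusted p under 0.05 for a higher day 3 and 0 for a lower, and limma called 0. Fos had 234 on day 1, 4397 on day 2 and 1964 on day 3, against 389 to 712 in ES cells. Egr2 had 72.7, 567 and 560 against 138 to 178, Egr1 had 524, 2161 and 1940 against 609 to 1358, and Fosb had 344, 1299 and 1125 against 310 to 451. Dusp5, an ERK phosphatase outside the list, had 1128, 4797 and 6771 against 2882 to 3667. Day 1 was the lowest of the 3 days for each of these 5 genes, which were picked with their values known. Most reached their level by day 2, so that of the list Egr3 alone rose at both steps. The sample with no sort label was also the low one; the part of sorting in this was not tested.

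Glycolysis genes had the second highest median difference, 0.68, with 16 of 18 higher on day 3, and 0 of them rose by 0.5 at both steps. Against the ES mean their median was -0.077, 0.44 and 0.62 on the 3 days. The aldolase gene Aldoa had 5595, 13107 and 14210 against 7544 to 9632 in ES cells, and Pgk1, phosphoglycerate kinase, had 3743, 6562 and 6898 against 2419 to 3316. The glucose transporter gene Slc2a1 had 2172, 5433 and 4026 against 2309 to 2974. Hypoxia response genes had a median difference of 0.34, with 13 of 19 higher. Bnip3, a mitophagy gene induced by hypoxia, had 247, 679 and 576 against 193 to 302, and Bhlhe40, a transcriptional repressor, rose with 103, 203 and 328 against 105, 134 and 201. Except for Bhlhe40, these genes were picked with their values known, and in them the main step lay between day 1 and day 2. Another probe set of Aldoa did not go up at both steps. Ldha and Hk2 were picked in the same way. Ldha had 7633, 9080 and 12627 against 7902 to 9932 in ES cells, with the larger step after day 2. Hk2 had 649, 1533 and 1342 against 1523 to 1787, and so ended below the ES samples.

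Epithelial genes had a median difference of 0.29, with 13 of 21 higher, 3 rising and 1 falling, a median close to the 0.23 of the reference genes. The rises were Cldn6, the keratin gene Krt18 (63.3, 127 and 267 against 118, 375 and 283 in ES cells) and the splicing regulator gene Esrp1 (193, 433 and 640 against 229, 160 and 131). Esrp1 was only 101 in the day 2 E-cadherin-negative and 47.2 in the day 3 Sox1-positive cells. The fall was Perp, a desmosomal p53 target, with 567, 322 and 191 against 496, 545 and 340. Cldn4, picked with its values known, had 517, 372 and 1626 against 1147 to 1262. In surface ectoderm and trophectoderm, Krt14 rose from 16.2 over 115 to 183, with ES values of 162, 101 and 193, so that day 1 was the sample apart; its log2 difference of 2.63 was 3.42 with a pseudocount of 1 and 1.62 with 64. Sox7, an endoderm factor, rose with 65.9, 123 and 185 against 82.5, 65.3 and 99.8. It was the single rise among 22 endoderm genes, of which 14 were higher on day 3. Their median difference was 0.20, close to the 0.23 of the reference genes. Gata6 and Sparc, picked with their values known, went the other way. Gata6 had 136, 110 and 45.6 against 78.1 to 138 in ES cells, and Sparc had 650, 292 and 299 against 671 to 1093.

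Neural progenitor genes had 0 rising and 0 falling of 38, and their median difference from ES was 0.29, 0.18 and 0.23, against 1.40 to 2.36 in the 4 samples of the neural side. Of the 38 genes 16 were higher on day 3 than on day 1, with a median difference of -0.19. Single neural genes differed in direction. Crabp1 had 862 on day 1 against 136 and 159 later and 283 to 342 in ES cells. Zic1 had 226 against 65.6 and 47.6, and both were picked with their values known. Sox1 and Sox3, given above, were instead lowest on day 1 of the 3 days. In bulk samples fewer cells of a type and less RNA per cell cannot be told apart. Of the anterior and posterior neural list, Gbx2 fell with 1099, 336 and 207, but its ES values of 233, 2296 and 2727 spanned more. Hoxb4 fell with 2075, 976 and 490 against 402, 557 and 1146, a log2 difference of -2.05 that was -0.64 as a mean over its probe sets. Pax2 rose with 44.4, 83.4 and 128 against 95.1, 53.6 and 67.8. Mesoderm and primitive streak genes had a median difference of 0.40 with 11 of 14 higher, and 0 rose or fell at both steps. Their median against ES was -0.014, 0.23 and 0.41 in day order, beside -0.18 to 0.17 in the single ES samples. Fibroblast or feeder genes, the markers of a possible other cell type, had a median of 0.65 with 10 of 11 higher. Their median against ES was -0.60, 0.026 and 0.33, beside a span of -0.38 to 0.30 among the ES samples, and Ccn2 was the single rise. Of its markers Thy1 had 62.2, 137 and 149 against 87.6 to 150 in ES cells, and Vim, which many cell types express, had 159, 130 and 213 against 122 to 214; both were picked with their values known. Their part in the other results was not tested.

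In lists of this size the shares of 0.881% rising and 0.804% falling leave few or no members to be seen, so zeros are not read as a result. The Wnt (21 genes tested), nodal (18), FGF and ERK (20) and hedgehog (15) lists held 0 genes that rose or fell at both steps, as did those of cell cycle (32), oxidative phosphorylation (22) and cholesterol synthesis (18). These lists do not hold every gene of a pathway: Fgf17 and Prickle1 above, and the ligand gene Wnt8a (75.5, 125 and 246 against 22.3 to 54.7 in ES cells), rose but are in none of them. The LIF, BMP and Notch lists held 1 rising gene each, of 16, 18 and 15. The LIF list also held 1 falling gene, Gbx2, given above with its wide ES values. Il6st, the shared receptor subunit gp130 through which LIF acts, rose with 407, 597 and 958 against 814, 724 and 569; its log2 difference of 1.20 was 0.51 as a mean over its probe sets. Id1, a BMP target, rose with 200, 306 and 492 against 360, 415 and 323, and the Notch target Hes1 rose with 393, 611 and 875 against 958, 584 and 714. The Notch ligand gene Jag1, picked with its values known, had 488, 546 and 1282 against 798 to 836. Of its 2 other probe sets, 0 went up at both steps. Over the Notch list the median day 3 minus day 1 difference was -0.18, with 7 of 15 higher. Rarg, a retinoic acid receptor, fell with 1305, 876 and 574 against 773, 972 and 917, and had 49.9 in the day 3 Sox1-positive cells. Pecam1, an adhesion molecule of ES and endothelial cells, rose with 59.7, 113 and 188, within ES values of 46.8, 30.3 and 189. Rps19 rose with 6502, 9393 and 16580 against 11957, 7574 and 8328, the single rise among 14 ribosomal protein genes.

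**Figure D4:**
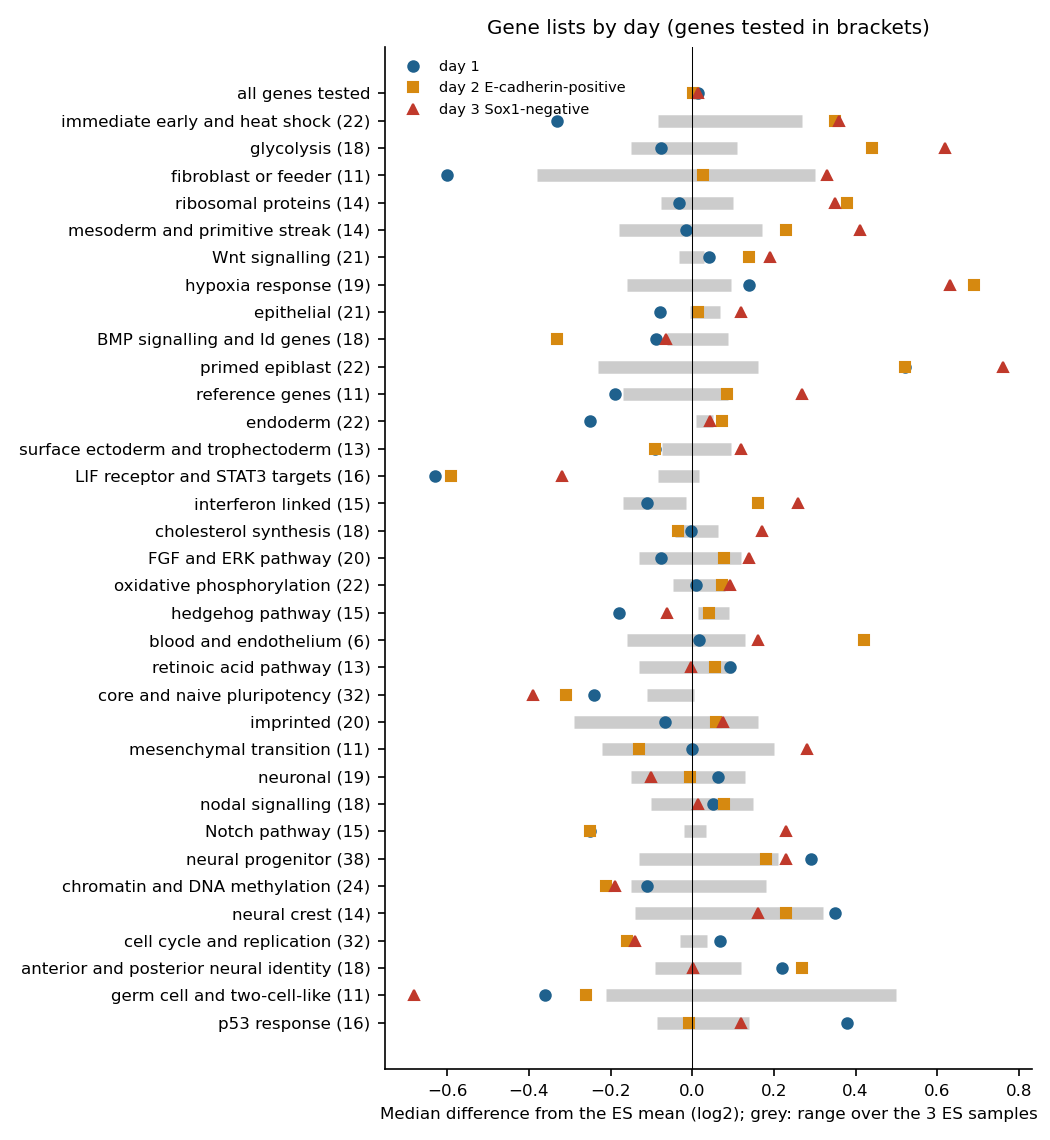
For each gene list, the median log2 difference from the ES mean on day 1 (circle), day 2 (square) and day 3 (triangle), with the range of the same median over the 3 ES samples as a grey bar and the number of genes tested in brackets. The immediate early and heat shock list goes from -0.33 to 0.36 and the glycolysis list from -0.077 to 0.62. The median of all genes stays within 0.014 of 0.

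The genes that turned back were led by day 2. The largest peaks were Spx (36.4, 227 and 27.7), A230107N01Rik (64.7, 350 and 46.2), Hmgcll1 (69.5, 398 and 79.4) and Asb9 (131, 609 and 66.7). The ES values of A230107N01Rik (65.5 to 555) and Hmgcll1 (70.8 to 378) spanned about the same distance. The largest troughs were Gm973 (599, 87.5 and 613), the zinc finger gene Zfp27 (447, 26 and 216), Cnmd (399, 49.9 and 334), which encodes chondromodulin, and the calcium pump gene Atp2b2 (453, 74.7 and 625). All 8 came from the C chip. The day 2 arrays also stood apart in their distribution: the brightest 1% of probe sets held 27.59%, 21.61% and 37.67% of the signal on chips A, B and C, against 20.33% to 25.11%, 14.75% to 17.71% and 27.75% to 33.36% on all other arrays. The part of this in the peaks and troughs was not tested. Without the day 2 sample, 535 genes were higher and 549 lower by 1 or more on day 3 than on day 1 (log2). Together these were 1084 genes (8.38%). Between the ES samples it was 953 (7.36%) for replicates 1 and 2, 1331 (10.3%) for 1 and 3 and 677 (5.23%) for 2 and 3.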

How the data were processed

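The authors' deposited values were linear intensities, 1 per probe set and array. Their 2% trimmed mean lay between 499.868 and 499.921 on every array, so the arrays had been scaled before deposit; their software is not given in the sources used here. With 1 sample a day, precision is limited by how few arrays there are. Of 36899 probe sets, 198 controls were left out. Those below the 30th percentile of mean intensity per chip were filtered, which left 25690. Each of 12941 genes was read by its probe set of highest mean log2 value that names no other gene. Levels were taken as log2(intensity + 16), so fold differences of dim genes are understated. limma 3.58.1 (R 4.3.3) fitted a mean for each of the 8 groups, with 2 residual degrees of freedom from the ES samples, each lone sample being assumed to vary like them, and Benjamini-Hochberg adjustment over the 3 chips. The code was tested on simulated data. Named genes were Sox1, Cdh1 and Pou5f1, the 12 largest rises and falls past the gene's own ES range with a signal at or above the chip median, up to 2 each way per list, and the 4 largest peaks and troughs. The comparison, the members and the lists were chosen with earlier results of these data known. Promoters came from RefSeq (GRCm38.p6), which held 38 of the 49 named genes. Alternatives changed the normalization, pseudocount, filter, step size, probe set choice, prior and ES samples.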

Additional observations from a re-analysis of the deposited data

Results flagged for a closer look

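Between day 2 and day 3, 5 of the named genes moved by 1 or more (log2) in opposite directions in the cells described here and in the neural side (E-cadherin-negative to Sox1-positive cells). The branches share no sample, each step rests on 1 sample at either end, and the difference was not tested. Spx was lower by day 3 in the first (-2.48) and higher in the second (1.49). Hmgcll1 had -2.12 and 1.09, and Asb9 had -2.92 and 1.35. Gm973 had 2.60 and -2.01, and Cnmd 2.41 and -3.88. All 5 were named for their day 2 peak or trough, so a large second step in the first branch was fixed by the choice. Over all 12941 genes, 96 moved this way.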

How the results depend on the processing

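The counts of rises and falls depended on the pseudocount, the filter and the step size, while limma's count of 0 changed only with the ES samples. With a pseudocount of 64, 60 genes rose and 67 fell, 59 and 67 of them shared with the 114 and 104. With no filter 176 rose and 741 went up then down. With a filter at the 60th percentile, where fewer genes were tested, 35 rose, 46 fell, 171 went up then down and 316 down then up. Steps of 0.25 gave 526 rises and 508 falls, steps of 1 gave 6 and 9, and steps beyond each gene's own ES range gave 43 and 37. Without the day 2 sample, added after seeing the data, 535 genes were higher and 549 lower by 1 or more. Together this was 8.38% of genes, beside 5.23% to 10.3% between pairs of ES samples. With quantile normalization 93 rose (88 shared) and 111 fell (98 shared). limma called 0 genes under every alternative listed above and in the methods except leaving out ES replicates, which gave 0 to 3 higher and 0 to 1 lower calls; the calls came without ES replicate 1, and the lowest limma adjusted p was 1 without ES replicate 2. Of 609 values of the 49 named genes under alternatives, 568 stayed within 1 ES SD, 40 moved more, and Ccn2 alone was called once. Many of the 568 could not move. The log2 difference is the same by construction when an ES replicate is left out or the adjustment is made within each chip. The same holds for limma's mean-variance trend and for a straight line on day. The sign turned in 2 of the 609 values, both of Pou5f1, whose difference of 0.061 was -0.047 with quantile normalization and -0.052 as a mean over its probe sets. Medians of 8 of the 34 lists changed sign: neuronal, blood and endothelium, mesenchymal transition, imprinted, nodal, BMP, Notch and retinoic acid. The filter at the 60th percentile left no blood and endothelium gene, so that list has no value there. The immediate early and heat shock median ran from 0.47 to 0.77 and the glycolysis median from 0.62 to 0.71. No paired analysis was possible because each day has 1 sample.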

Other observations

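Genes of the p53 response, which restrain the cell cycle after damage, had the lowest median day 3 minus day 1 difference of the 34 lists, -0.57 (log2), with 4 of 16 higher; 5 had an unadjusted p under 0.05 for a lower day 3 and limma called 0. Against ES the list's median was 0.38, -0.0071 and 0.12 in day order, so day 1 was the high sample. Trp53inp1 had intensities of 6407, 3691 and 2895 against 3657 to 4139 in ES cells, Phlda3 had 2755, 1135 and 1190 against 1582 to 1846, and Plk2 had 2470, 1885 and 956 against 1251 to 2472. Cell cycle and replication genes had a median of -0.25, with 9 of 32 higher. The genes with values here were picked with these known.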
